A study of Mus musculus with 10 samples.

Results

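Myc and the regulators that carry cells from rest into S phase were followed here through 6 genes: Myc, the D-type cyclins Ccnd1, Ccnd2 and Ccnd3, the E-type cyclin Ccne1, and the kinase gene Cdk4. Every probe set that the platform annotation assigns to exactly 1 of these symbols was taken, which gave 8 probe sets of 12422 ordinary ones on the array, for 6 of 8251 genes with such an assignment. Ccnd1 and Cdk4 each have 2 probe sets, and the other 4 genes have 1. All 8 passed the filter on mean level that left 9316 probe sets for testing.

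The cells were primary mouse embryonic fibroblasts, prepared from e14.5 embryos on a C57/BLACK6 background. They were ATF1 +/-, carrying 1 disrupted copy of the gene for a CREB-family transcription factor, in every group including the starved ones, so no wild-type cells enter any comparison. Cultures grown in dialyzed fetal bovine serum were starved for 48 h at 1% serum and then kept for 2 h in either 10% serum (here called serum) or 1% serum (here called starved). RNA came from 3 pools, each in both serum states: cytoplasmic RNA (1 array each), polyribosome RNA carrying 2 or more ribosomes (2 arrays each), and undertranslated RNA carrying no ribosome, a single subunit or 1 ribosome (2 arrays each). The last pair of pools are sucrose gradient fractions, and the 8 gradient arrays come from cultures that received cycloheximide at 100 ug/ml for 30 min. Cytoplasmic cultures did not receive it, so cytoplasmic RNA against a gradient pool cannot be told apart from cultures without against cultures with the drug. Replicate 2 of every gradient group had been labelled with 200 uM 4-thiouridine and with tritiated cytidine, and replicate 1 with neither. Equal fractions from gradients of different cultures were combined ahead of labelling, so the spread between arrays is that between pools and may understate the spread between cultures.

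Myc is a basic helix-loop-helix transcription factor that binds E-box sequences as a dimer with Max, and its mRNA and protein are short-lived. In resting fibroblasts, serum growth factors act through Ras and the MAP kinases to raise Myc and cyclin D1. D-type cyclins bind the kinases Cdk4 and Cdk6, and cyclin E binds Cdk2. Both kinds of complex phosphorylate the retinoblastoma protein and so release E2F transcription factors, which turn on genes of DNA synthesis. Most of these proteins turn over fast, so the share of their mRNA that is on ribosomes bears on how much of each is made.

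Cdk4 is a textbook target of Myc, and its promoter is shown because it is the one of these genes in which E-boxes cluster in the given window. RefSeq promoter windows of GRCm38.p6, from 250 bases before to 50 bases after a gene's start, were matched for 3 of the 6 genes: Cdk4, Ccnd3 and Ccne1. The Cdk4 window on chr10:127063285-127063584, plus strand, reads as follows 5′ to 3′, with each copy of the E-box CACGTG in capitals.
Cdk4 promoter: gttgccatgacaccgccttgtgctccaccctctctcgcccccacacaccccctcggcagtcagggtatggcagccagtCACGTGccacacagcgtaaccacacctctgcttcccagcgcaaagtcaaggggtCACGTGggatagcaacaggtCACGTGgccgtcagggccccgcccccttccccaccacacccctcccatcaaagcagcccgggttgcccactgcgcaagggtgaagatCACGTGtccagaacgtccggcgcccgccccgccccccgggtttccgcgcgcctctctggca
The motif is its own reverse complement, so a copy reads the same on both strands. The 4 copies begin at -172, -118, -98 and -11 relative to the start, and none overlaps another. Of 32851 mouse promoter windows of this length, 7.15% hold at least 1 copy and 0.0244% hold at least 4. No copy lies in the windows of Ccnd3 or Ccne1, which says only that these letters are not in those stretches.

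Array brightness differed between the pools more than between serum states. The median intensity of all ordinary probe sets was 45.3 to 54.25 on polyribosome arrays, 19.1 to 19.2 on cytoplasmic arrays and 5.7 to 8.8 on undertranslated arrays. Replicate arrays correlated at 0.968 and 0.969 for polyribosome RNA, and for undertranslated RNA at 0.89 (starved) and 0.792 (serum). Arrays were therefore given a common distribution by quantile normalization, and every level below is a scaled log2 intensity unless called an intensity. A difference between pools is thus a difference in place within each array's distribution and not in molecules per cell. Other scalings moved the median difference of all probe sets: to 1.31 for polyribosome minus cytoplasmic and 3.02 for polyribosome minus undertranslated RNA with the values as deposited, to -0.28 and 3.33 with hybridization control scaling, and to 0.0474 and 0.554 with median centring. In such bulk RNA, fewer cells expressing a gene and less RNA per cell cannot be told apart. The targeted gene, Atf1, has no ordinary probe set named for it, so the labelled genotype was not checked. Of 15 fibroblast marker probe sets, all were above background on cytoplasmic and polyribosome arrays and 14 on undertranslated arrays. Background was the brightest of 19 control probe sets for bacterial or yeast sequences that were not spiked in.

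**Figure D1:**
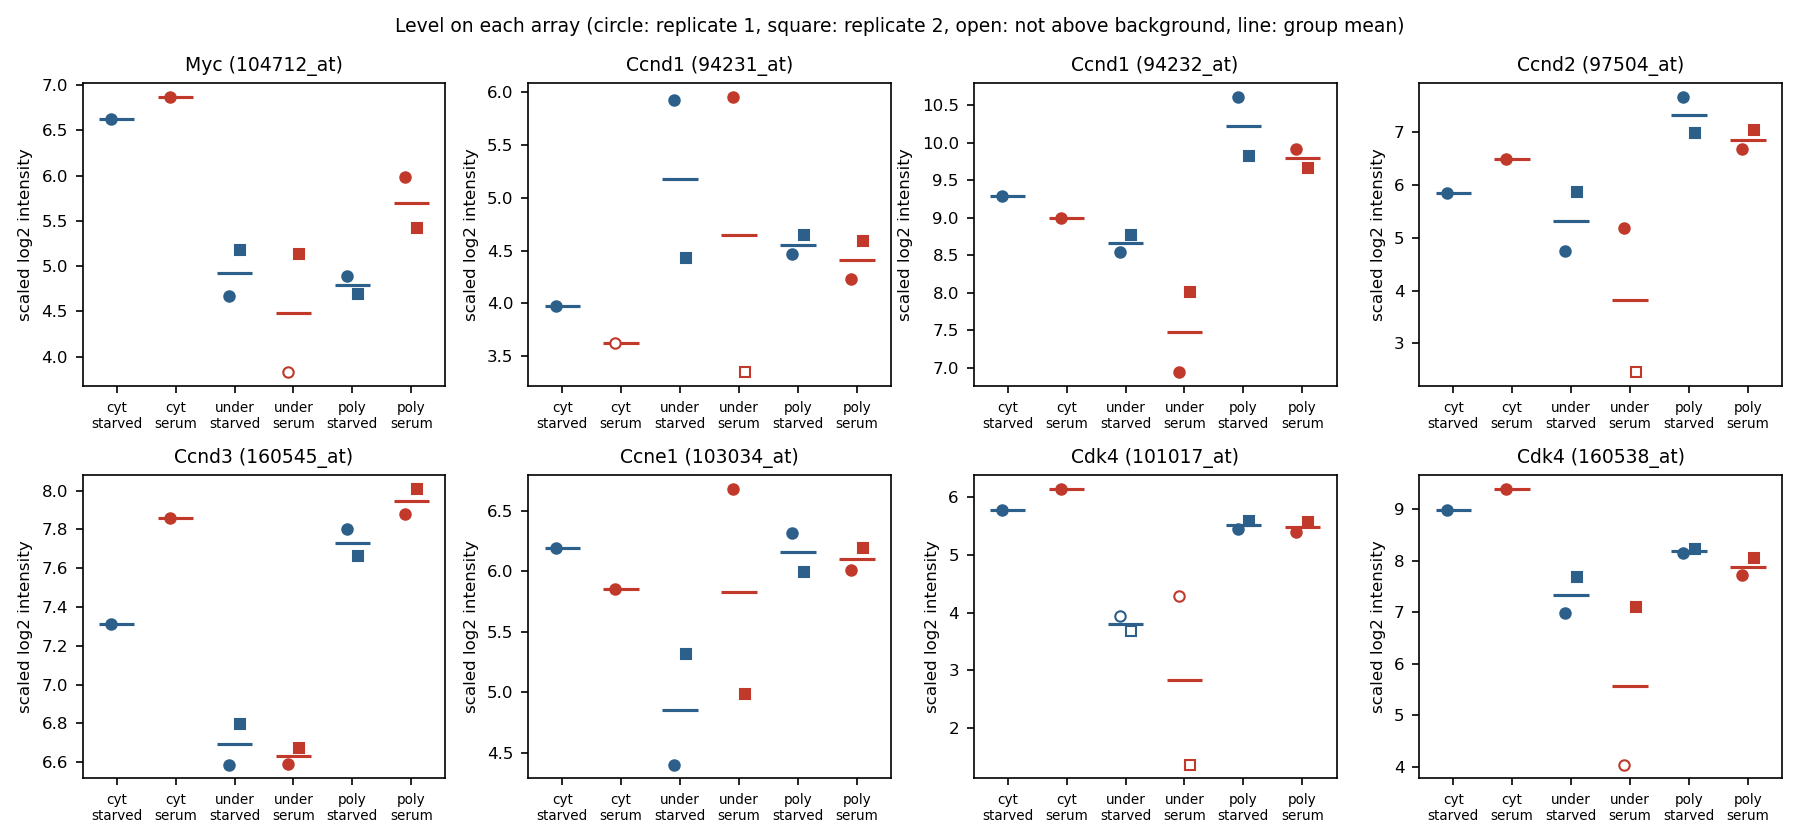
Scaled log2 intensity of each of the 8 probe sets (vertical axis) on each of the 10 arrays, by RNA pool and serum state; open symbols mark arrays where the probe set was not above background. Myc is highest on the 2 cytoplasmic arrays, Ccnd1 (94232_at) and Ccnd2 are highest on the 4 polyribosome arrays, and the Cdk4 probe set 101017_at is not above background on any of the 4 undertranslated arrays; vertical scales differ between panels.

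The comparison of polyribosome with cytoplasmic RNA asks how the mRNA on several ribosomes compares with the cytoplasmic population. Relative to the other mRNAs on the array, Myc was lower in polyribosome RNA and the cyclin D1 and D2 mRNAs were higher. One of the probe sets for Cdk4 was lower and the other was not called. Cyclin D3 and cyclin E1 were not called. Of the 8 probe sets, 3 (Ccnd1 with both, and Ccnd2) were higher and 2 (Myc and one of Cdk4) were lower at an adjusted p under 0.05 in limma. Of all tested probe sets 26.4% were called, 1350 of them higher and 1113 lower, a share of 54.8% higher that became 98.8% for the values as deposited, 66.2% after median centring and 39.3% after hybridization control scaling. In all, 6 of the 8 probe sets had pools that did not overlap, 3 in each direction, as did 22.7% of all tested probe sets with polyribosome RNA higher and 21.7% with it lower. The median difference was 0.18 over the 8 and 0.000752 over all 9316. A sign of RNA quality moved with this comparison: the ratio of the 3′ to the 5′ Gapdh control probe set was 47.03 and 28.39 on cytoplasmic arrays and 6.112 to 20.88 on polyribosome arrays, while the Actb ratios of these pools overlapped (11.89 to 16.65 and 11.5 to 21.06). Its part in the differences was not tested.

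Myc (104712_at, chromosome 15) had a cytoplasmic level of 6.63 starved and 6.87 with serum. Its polyribosome levels were 4.89 and 4.70 starved and 5.98 and 5.42 with serum. Both cytoplasmic arrays lay above all 4 polyribosome arrays. Polyribosome minus cytoplasmic was -1.50 ± 0.24 (SE; 4 against 2 arrays), with a limma adjusted p of 0.00268, a difference lower than that of all but 2.243% of the tested probe sets. In intensities Myc read 127.4 and 141.3 in cytoplasmic RNA, and 86.3, 59.8, 189.7 and 112.0 in polyribosome RNA, ranges that overlap. The call for Myc as a difference in intensity therefore depends on the scaling. The values as deposited gave -0.38 (limma adjusted p = 0.289), while the median probe set rose by 1.31. Its place within each array was lower without overlap: percentiles of 80.56 and 83 on cytoplasmic arrays, and 54.76 to 73.02 on polyribosome arrays. Relative to the median probe set, Myc was at -1.50 with quantile normalization and at -1.69 with the values as deposited. Median centring and hybridization control scaling only shift each array's log2 values by a constant. They therefore repeat the -1.69 by construction and are not separate readings. Without the starved cytoplasmic array the difference was -1.17 (adjusted p = 0.0517), and in 1 fit over all 10 arrays its adjusted p was 0.112.

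Cyclin D1 (Ccnd1, chromosome 7) was measured by 2 probe sets. At 94232_at the polyribosome intensities were 5141.0 and 2953.1 starved and 3581.9 and 2802.6 with serum, against cytoplasmic intensities of 820.6 starved and 624.6 with serum. On the scaled log2 axis these were 10.62, 9.83, 9.92 and 9.67 in polyribosome RNA, and 9.28 and 8.999 in cytoplasmic RNA. The pools did not overlap, and the difference was 0.87 ± 0.24 (limma adjusted p = 0.0258). The second probe set, 94231_at, read 4.47, 4.65, 4.23 and 4.59 in polyribosome RNA and 3.98 and 3.63 in cytoplasmic RNA. Its difference was 0.68 ± 0.22 (limma adjusted p = 0.0498), just inside the threshold, and its serum cytoplasmic intensity of 10.4 was not above background.

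Cyclin D2 (Ccnd2, 97504_at, chromosome 6) is a second D-type cyclin that pairs with the same kinases. Its polyribosome levels were 7.67 and 6.99 starved and 6.68 and 7.05 with serum, against 5.85 and 6.49 in cytoplasmic RNA. All polyribosome arrays lay above both cytoplasmic arrays, by 0.93 ± 0.30 (limma adjusted p = 0.0471). Cyclin D3 (Ccnd3, 160545_at, chromosome 17) had overlapping pools: 7.80, 7.66, 7.88 and 8.01 in polyribosome RNA, and 7.31 and 7.86 in cytoplasmic RNA. Its difference was 0.25 ± 0.18 (limma adjusted p = 0.348). Cyclin E1 (Ccne1, 103034_at, chromosome 7) read 6.32, 6.00, 6.01 and 6.20 in polyribosome RNA and 6.19 and 5.85 in cytoplasmic RNA, and its difference of 0.11 ± 0.20 (limma adjusted p = 0.727) was not called. With hybridization control scaling it was -0.046 where the median probe set was at -0.28. Relative to the median probe set it was at 0.11 with quantile normalization. It was at 0.23 with the other scalings, which give the same relative value by construction.

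The calls for cyclin D1 and D2 rested on few arrays. Leaving out the starved cytoplasmic array gave 0.80 for 94232_at (adjusted p = 0.179) and 0.37 for Ccnd2 (adjusted p = 0.521), and leaving out the serum cytoplasmic array gave 0.94 (adjusted p = 0.175) and 1.49 (adjusted p = 0.0677). Ccnd2 also lost its call without the first starved polyribosome array (0.70, adjusted p = 0.0845) or the second serum one (0.93, adjusted p = 0.0991), and 94231_at lost its call when any 1 of the 6 arrays was left out, at 0.58 to 0.78. With scaling to the hybridization controls none of the cyclin D1 and D2 probe sets was called (0.42 to 0.97, adjusted p from 0.0883 to 0.349). Without a variance trend all 3 lost their calls (adjusted p = 0.0531 for 94232_at, 0.0533 for 94231_at and 0.0809 for Ccnd2). Without the filter Ccnd2 (adjusted p = 0.0693) and 94231_at (adjusted p = 0.0976) did, and with median centring 94231_at did (adjusted p = 0.0675). With thiouridine labelling, which is the replicate number, as a block, Ccnd2 gave 1.01 (adjusted p = 0.064) and 94231_at gave 0.54 (adjusted p = 0.138), and 94232_at kept its call at 1.13 (adjusted p = 0.00534). The fit over all 10 arrays called none of the 8 probe sets.

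Cdk4, the kinase that D-type cyclins activate, was measured by 2 probe sets on chromosome 10. At 160538_at the cytoplasmic levels were 8.98 starved and 9.39 with serum, and the polyribosome levels were 8.16 and 8.22 starved and 7.72 and 8.04 with serum. The pools did not overlap, and polyribosome minus cytoplasmic was -1.15 ± 0.22 (limma adjusted p = 0.00565), although the values as deposited, in which the median probe set rose by 1.31, gave 0.50 (adjusted p = 0.0884), which is -0.81 relative to that median. At 101017_at the levels were 5.78 and 6.14 in cytoplasmic RNA and 5.46, 5.595, 5.40 and 5.57 in polyribosome RNA. This difference, -0.46 ± 0.19 (limma adjusted p = 0.113), was not called and became 0.84 (adjusted p = 0.0121) with the values as deposited, which is -0.47 relative to the median probe set. Without the serum cytoplasmic array the call at 160538_at was lost, at -0.79 (adjusted p = 0.15).

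**Figure D2:**
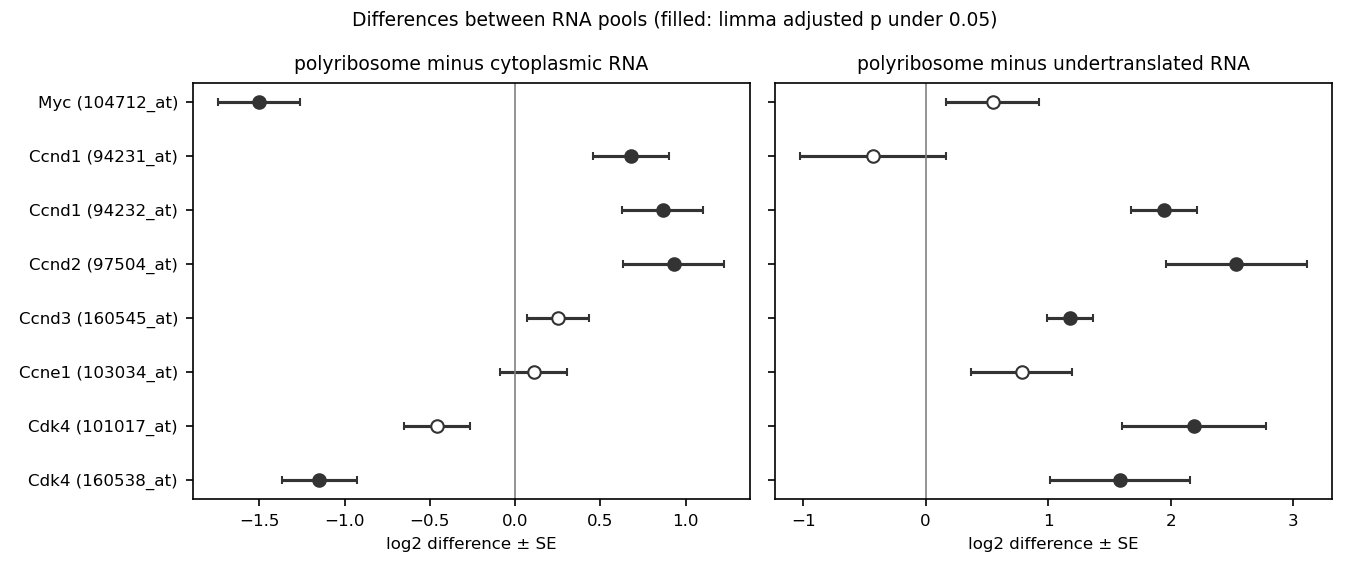
Difference between RNA pools for each probe set on the log2 scale (horizontal axis, ± SE), polyribosome minus cytoplasmic on the left and polyribosome minus undertranslated on the right; filled points had a limma adjusted p under 0.05. On the left Myc (-1.50) and Cdk4 160538_at (-1.15) lie below 0 and the Ccnd1 and Ccnd2 points above it; on the right 5 points are filled, all above 0.

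The comparison of polyribosome with undertranslated RNA asks which mRNAs sit on several ribosomes rather than on none or 1. Cyclins D1, D2 and D3 and Cdk4 were higher in polyribosome RNA, while Myc and cyclin E1 were not called. In counts, 5 of the 8 probe sets (4 genes) were higher and none was lower in limma, where 28.7% of all tested probe sets were higher and 25.5% were lower. Scaling moved that split strongly: 52.9% of the calls were higher here, against 99.6% with the values as deposited, 99.7% with hybridization control scaling and 66.8% with median centring. The median difference was 1.38 over the 8 and 0.0465 over all. Here the Actb ratio was higher on every undertranslated array (23.56 to 137.3) than on any polyribosome array. The Gapdh ratio went the other way with overlap, at 3.703 to 6.809 on undertranslated and 6.112 to 20.88 on polyribosome arrays. The part of either ratio was not tested.

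Cyclin D1 (94232_at) had undertranslated levels of 8.55 and 8.77 starved and 6.94 and 8.00 with serum, all below its 4 polyribosome levels, an order without overlap that 26.1% of all tested probe sets showed. Its difference was 1.94 ± 0.27 (4 against 4 arrays; limma adjusted p = 0.000586), or 3.85-fold on the scaled axis. The other probe set gave the opposite sign with no call: 94231_at read 5.92, 4.43, 5.96 and 3.35 in undertranslated RNA, for a difference of -0.43 ± 0.59 (limma adjusted p = 0.563). The values as deposited gave 2.27 and hybridization control scaling gave 2.58, with the median probe set at 3.02 and 3.33. Relative to the median probe set 94231_at was at -0.48 with quantile normalization and at -0.75 with the values as deposited. Median centring and hybridization control scaling repeat the -0.75 by construction. Without the second serum undertranslated array, where it was not above background, the difference at 94231_at was -1.08 (adjusted p = 0.0433). The levels of the cyclin D1 probe sets correlated at -0.3375 over the 10 arrays.

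Cyclin D2 read 4.75 and 5.87 starved and 5.18 and 2.45 with serum in undertranslated RNA, the last not above background. All 4 lay below its polyribosome levels, by 2.54 ± 0.57 (limma adjusted p = 0.00616). Cyclin D3 had the smallest standard error of the 8 probe sets: its 4 undertranslated levels were 6.59, 6.80, 6.59 and 6.68, and the difference was 1.18 ± 0.19 (limma adjusted p = 0.00119). Cyclin D1 at 94232_at, cyclin D2 and cyclin D3 kept their calls when any 1 of the 8 arrays was left out and under every other setting tried.

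Cdk4 at 101017_at was not above background on any of the 4 undertranslated arrays, with intensities of 5.8, 5.7, 5.3 and 0.8 against 143.3, 134.1, 114.6 and 127.8 in polyribosome RNA. Only a bound can be given for the size: polyribosome RNA was at least 2.03-fold higher, and this bound was not itself tested. The fitted difference, which uses the readings below background, was 2.19 ± 0.58 (limma adjusted p = 0.013). At 160538_at the undertranslated levels were 6.99 and 7.69 starved and 4.04 and 7.10 with serum, the third of these not above background. The difference was 1.58 ± 0.57 (limma adjusted p = 0.0438), and it was called in only 2 of the 8 fits that left out 1 array, those without a serum undertranslated one. It was also lost without the filter (adjusted p = 0.0548) and without a variance trend (adjusted p = 0.0699). The differences in the 8 fits ran from 0.82 to 2.35.

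Myc and cyclin E1 pointed upward with overlapping pools. Myc read 4.67 and 5.18 starved and 3.83 and 5.13 with serum in undertranslated RNA, the third of these not above background, and its difference was 0.55 ± 0.38 (limma adjusted p = 0.248). Cyclin E1 read 4.41 and 5.31 starved and 6.68 and 4.99 with serum, for a difference of 0.78 ± 0.41 (limma adjusted p = 0.138). Both were called once each array was centred on its median, which moves the median probe set up by 0.554, and with the values as deposited and hybridization control scaling. Without the second serum undertranslated array Myc gave 0.87 (adjusted p = 0.026), and without the first one cyclin E1 gave 1.21 (adjusted p = 0.00839).

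Ordered by mean level, Myc stood highest in cytoplasmic RNA (serum, then starved), then in serum polyribosome RNA at 5.70 ± 0.40 (SD, n = 2). Its starved undertranslated (4.92 ± 0.36), starved polyribosome (4.79 ± 0.14) and serum undertranslated (4.48 ± 0.92) levels came last and did not differ beyond their spread. Ccnd1 at 94232_at ran from starved polyribosome RNA (10.22 ± 0.56) through serum polyribosome (9.79 ± 0.18), starved cytoplasmic, serum cytoplasmic and starved undertranslated (8.66 ± 0.16) to serum undertranslated RNA (7.47 ± 0.75). Its 2 polyribosome groups overlapped. At 94231_at the order was another, with starved undertranslated RNA on top (5.17 ± 1.06) and serum cytoplasmic RNA last (3.63, not above background). Those starved undertranslated arrays overlapped the polyribosome arrays. Ccnd2 had both polyribosome groups on top, at 7.33 ± 0.48 and 6.86 ± 0.26, which overlapped. Ccnd3 had serum polyribosome RNA on top at 7.95 ± 0.089, with serum cytoplasmic RNA (7.86) next, less than the polyribosome spread below it. Ccne1 lay between 5.83 and 6.19 in 5 of its 6 groups and at 4.86 ± 0.64 in starved undertranslated RNA, whose arrays lay below those of both polyribosome groups; the other 5 groups did not differ beyond their spread. Cdk4 at 160538_at ran from cytoplasmic (serum, then starved) through starved polyribosome (8.19 ± 0.047), serum polyribosome (7.88 ± 0.23) and starved undertranslated (7.34 ± 0.50) to serum undertranslated RNA (5.57 ± 2.16). At 101017_at cytoplasmic RNA (6.14 serum, 5.78 starved) was again on top. Its undertranslated groups were last and not above background.

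The serum comparison asks how 2 h of 10% serum changed these mRNAs after starvation. None of the 8 probe sets was called. In the fit over the polyribosome and cytoplasmic arrays, Myc had the largest positive difference of the 8 and cyclin D3 a smaller one. In that fit cyclin D1, cyclin D2, cyclin E1 and Cdk4 differed by less than 0.4 log2 units in either direction. The cytoplasmic pair alone gave another order. There Ccnd2 (0.65), Ccnd3 (0.54) and Cdk4 (0.41 at 160538_at and 0.37 at 101017_at) exceeded Myc (0.24). Over the 6 polyribosome and cytoplasmic arrays, limma called 0 of the 8 and 0.891% of all tested probe sets, and 1 of the 8, Myc, had an unadjusted p under 0.05. The median was -0.083 over the 8 and -0.00922 over all 9316.

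Myc intensity in polyribosome RNA was 86.3 and 59.8 starved and 189.7 and 112.0 with serum, and in cytoplasmic RNA 127.4 starved and 141.3 with serum. Every serum array of a pool was above the starved ones of that pool. On the scaled log2 axis the serum array exceeded the starved array by 1.09 and 0.72 in polyribosome replicates 1 and 2 and by 0.24 in the cytoplasmic pair. The fitted serum effect was 0.69 ± 0.23 (3 against 3 arrays), or 1.61-fold, with an unadjusted p of 0.0141 and a limma adjusted p of 0.275. This is higher than 96.02% of the tested probe sets, but it did not pass. In undertranslated RNA the serum arrays were lower by 0.84 and 0.05.

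Cyclin D3 was the other probe set higher in the cytoplasmic pair and, without overlap, in polyribosome RNA, a pattern that 11% of all tested probe sets showed. Over the 6 arrays its serum and starved levels did not overlap, as for 4.93% of all tested probe sets. Its serum effect was 0.32 ± 0.17 (limma adjusted p = 0.519), which became -0.082 with hybridization control scaling. Cyclin D1 was lower by 0.38 ± 0.22 at 94232_at (a serum effect of -0.38, limma adjusted p = 0.564) and gave -0.21 ± 0.21 at 94231_at (limma adjusted p = 0.75). Cyclin D2 gave -0.10 ± 0.28 (limma adjusted p = 0.932) and cyclin E1 gave -0.15 ± 0.19 (limma adjusted p = 0.811). The value for cyclin D2 combined 0.65 in the cytoplasmic pair with -0.99 and 0.06 in polyribosome replicates 1 and 2. Cdk4 gave 0.093 ± 0.18 at 101017_at, which turned to -0.31 with hybridization control scaling, and -0.07 ± 0.21 at 160538_at. The last was higher with serum in the cytoplasmic pair and lower in polyribosome RNA without overlap, as were 5.55% of all tested probe sets.

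**Figure D3:**
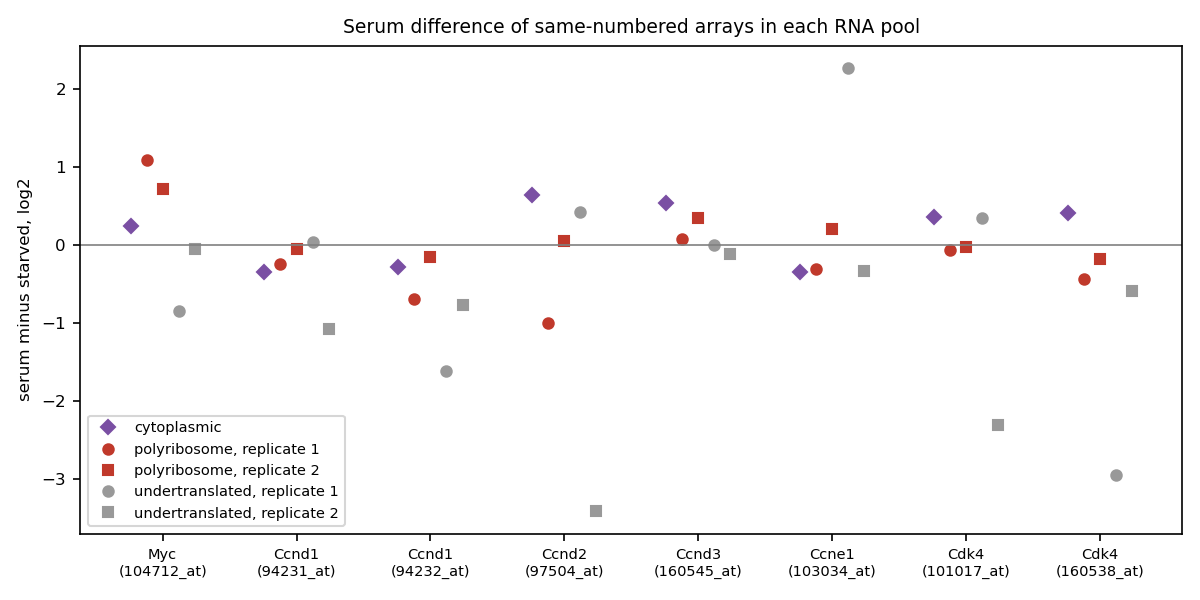
Serum minus starved difference on the log2 scale (vertical axis) for each probe set in the cytoplasmic pair, in polyribosome replicates 1 and 2 and in undertranslated replicates 1 and 2. Myc lies above 0 in cytoplasmic and polyribosome RNA (0.24, 1.09 and 0.72) and below it in undertranslated RNA (-0.84 and -0.05), and the undertranslated points of most probe sets spread far more widely than the others.

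Macrophage markers moved with serum in the same arrays: 5 of 9 tested rose in limma over the 6 polyribosome and cytoplasmic arrays, among them Ctss (1.74), Lyz2 (1.67) and Cd14 (1.10). Their summed intensity was 1320.9 to 1605.7 on starved and 3989.4 to 5007.7 on serum polyribosome arrays, and 395.8 starved and 872.4 with serum in cytoplasmic RNA. Between 7 and 9 of their 11 probe sets were above background on those arrays. Of 5 endothelial markers 1 rose (Flt1, 1.77), and of 5 epithelial markers none did, with 0.44 as their median. Whether cells of these types were present, and their part in the Myc and cyclin values, was not tested.

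Within undertranslated RNA no probe set of the 6 genes was called with serum, where 1.07% of all tested probe sets were. Only Ccnd1 94232_at had an unadjusted p under 0.05: its serum levels of 6.94 and 8.00 lay below the starved 8.55 and 8.77, as for 22.3% of all tested probe sets, by a fitted -1.19 ± 0.38 (limma adjusted p = 0.157). Cdk4 160538_at gave -1.77 ± 0.81 (limma adjusted p = 0.276), Ccnd2 gave -1.50 ± 0.81 (limma adjusted p = 0.338) and Ccne1 gave 0.97 ± 0.58 (limma adjusted p = 0.379). The serum undertranslated arrays decided these values. Without the second of them, 94232_at fell by 1.72, Cdk4 160538_at fell by 3.30 and Ccne1 rose by 1.82. On the serum array then left, Cdk4 160538_at was not above background, at an intensity of 4.6. Without the first, Ccnd2 fell by 2.86 and Cdk4 101017_at gave -2.44. Neither was above background on the serum array then left, where their intensities were 2.2 and 0.8.
A sign of RNA quality also differed within this pool: the ratio of the 3′ to the 5′ Actb control probe set reached 137.3 and 61.36 for the starved undertranslated arrays, compared with 23.56 and 33.87 for those with serum. Its part in the undertranslated values was not tested.

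Averaged over both gradient fractions, limma called 0 of all 9316 probe sets with serum, with 1073 at an unadjusted p under 0.05. Of the 8, only 94232_at was among these (-0.81 ± 0.27, limma adjusted p = 0.301). When the second serum undertranslated array was left out, 94232_at gave -1.08 and Cdk4 160538_at gave -1.80. The latter was not above background on the serum undertranslated array that remained. The shift of the polyribosome difference with serum, which asks whether a message changed its place between the fractions, was called for 0 of 9316 probe sets in limma, with 720 at an unadjusted p under 0.05 and none of the 8 among them. Myc had a shift of 1.35 ± 0.76 (limma adjusted p = 0.714): polyribosome minus undertranslated was -0.13 starved and 1.22 with serum. The serum value averages 2.16 in replicate 1, where Myc was not above background in undertranslated RNA, and 0.29 in replicate 2. Cdk4 160538_at had a shift of 1.46 ± 1.14 (limma adjusted p = 0.753). Without the second serum undertranslated array it became 2.99, with Cdk4 160538_at not above background on the serum undertranslated array left. The comparison of thiouridine-labelled with unlabelled cultures gave 0 calls in limma, with 602 at an unadjusted p under 0.05 and none of the 8 among them. Cdk4 160538_at came nearest, at 1.04 ± 0.47 (limma adjusted p = 0.693).

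Other genes of the G1 machinery were read from lists. Their differences are on the quantile-normalized scale, relative to the other probe sets. For comparison, limma called 26.4% of all tested probe sets against cytoplasmic RNA, 1350 of them higher and 1113 lower. Against undertranslated RNA 28.7% were higher and 25.5% lower. Of 16 tested G1 and S phase regulators, 5 were higher and none lower in polyribosome than in cytoplasmic RNA in limma, with a median of 0.414. Those with the largest differences were the E2F activator E2f3 (1.61), the retinoblastoma family genes Rbl1 (1.57) and Rb1 (1.39), and Mnat1 (0.68), a subunit of the kinase that activates CDKs. None of 6 CDK inhibitor genes was called, and the median was -0.527 with all 6 below 0. Against undertranslated RNA, 4 of those 6 inhibitors were higher and 1 was lower: Cdkn1c (2.81), Cdkn2a (2.62), Cdkn2d (1.98) and Cdkn1a (1.38) were higher, and Cdkn2b, which inhibits Cdk4 and Cdk6, was at -1.46. Of the 16 regulators, 3 were higher there, namely E2f1 (1.96), Mnat1 (1.59) and Rb1 (1.15).

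Against undertranslated RNA, where 28.7% of all tested probe sets were higher and 25.5% lower, the other lists gave the following calls. Of 13 other cyclin and mitotic kinase genes, 4 were higher and 3 lower. Of 25 Myc targets 10 were higher and 8 lower, and of 18 genes of mitogen signalling 7 were higher and 3 lower. Of 11 Myc partners 2 were higher and none lower, namely Mxd4 (2.89) and Ruvbl1 (2.16).

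Among 13 other cyclin and mitotic kinase genes, 4 were higher in polyribosome than in cytoplasmic RNA in limma, namely Ccni (1.77), Ccnc (1.76), Ccng1 (1.67) and Ccng2 (1.24), and Ccnf (-0.77) was lower. Ccng2, a cyclin associated with cell cycle exit, was the only gene of these lists called with serum over the 6 polyribosome and cytoplasmic arrays, at -1.58 ± 0.26 (limma adjusted p = 0.0305), and it fell by 3.20 in undertranslated RNA (limma adjusted p = 0.0338). Over the 6 arrays Ccng2 lost its call without either cytoplasmic array, the first starved polyribosome array or the second serum one (-1.39 to -1.51, adjusted p from 0.12 to 0.308), without the filter (adjusted p = 0.0755), without a variance trend (adjusted p = 0.0985) and in the fit of all 10 arrays (adjusted p = 0.467). In undertranslated RNA it kept its call only in the 2 of 8 fits without a serum undertranslated array, and the other 6, which called no probe set at all, gave -2.72 to -3.68 (adjusted p from 0.102 to 0.137).

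The 11 tested partners of Myc, among them Max and the Mxd repressors, gave 1 call against cytoplasmic RNA in limma, the chromatin helicase Ruvbl2 (-1.02). Of 25 textbook Myc targets, 5 were higher and 4 lower there, with a median of -0.212. Those higher included Nme1 (1.04), Prdx3 (1.03), Npm1 (1.02) and Eif4e (0.95), which encodes the cap-binding protein. Lower were Srm (-1.41), which makes spermidine, the nucleolar genes Nop56 (-1.03) and Fbl (-0.76), and the transferrin receptor gene Tfrc (-0.55). With serum none of the 25 was called over those 6 arrays, and their median was 0.089. Of 18 genes of mitogen signalling upstream of Myc and cyclin D1, 1 was higher and 3 were lower in polyribosome than in cytoplasmic RNA, and none was called with serum. Higher was Tcf4 (1.30), a symbol that belongs to a basic helix-loop-helix factor and not to the Wnt effector Tcf7l2, and lower were the receptor genes Fgfr1 (-1.62) and Pdgfrb (-0.80) and the transcription factor gene Ets2 (-0.56).

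**Figure D4:**
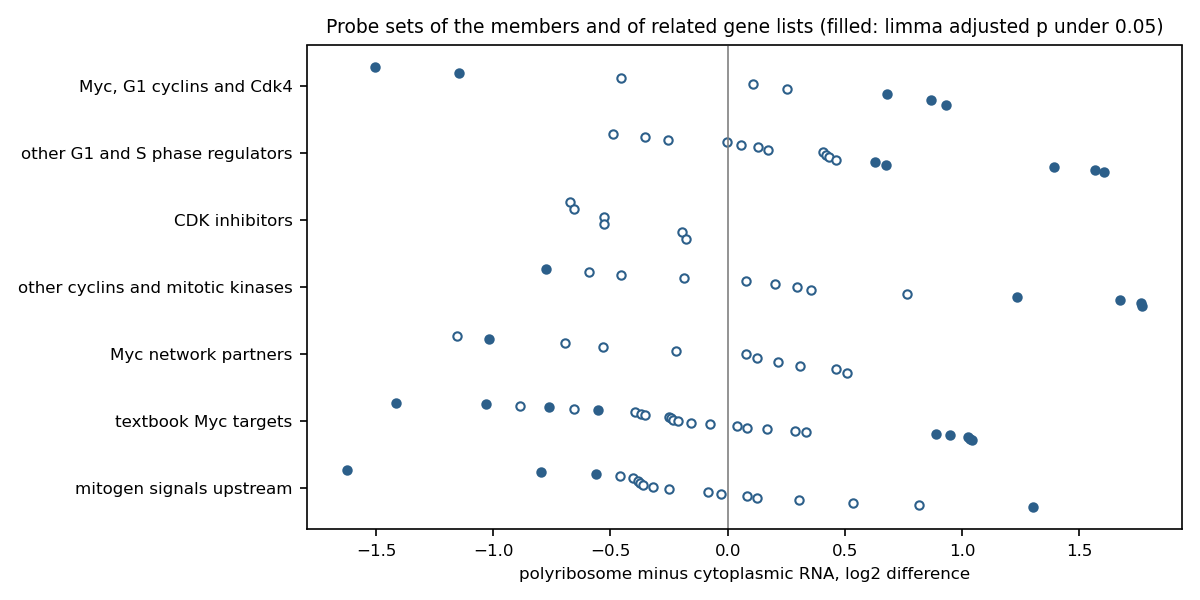
Polyribosome minus cytoplasmic RNA, log2 difference (horizontal axis), for the 8 probe sets and for the genes of 6 lists (rows); each point is 1 gene or probe set, and filled points had a limma adjusted p under 0.05. The 6 CDK inhibitors all lie below 0 with none filled, and the filled G1 and S phase regulators all lie above 0.

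By level over the 10 arrays, the probe sets most like Myc were Vegfd (Pearson r = 0.9507), Lhx6 (0.9472) and Rnf19b (0.9379), out of 7311 candidates. Closest to Cdk4 160538_at were Crabp2 (0.9956) and Ube2v1 (0.9891), to Ccnd1 94232_at Efnb2 (0.9801), to Ccnd2 Ndufv2 (0.9624), to Ccnd3 Etf1 (0.982) and to Ccne1 Aebp2 (0.9679). Among the members, the highest correlation was that of Ccnd2 with Cdk4 101017_at (0.8883). Ccnd1 94232_at and Ccnd3 correlated at 0.815, and Ccnd2 and Ccnd3 at 0.7926. Myc correlated at 0.8014 with Cdk4 160538_at but at 0.4293 with Cdk4 101017_at. With the Ccnd1 probe sets, Myc correlated at 0.3848 (94232_at) and -0.7169 (94231_at). The 2 Cdk4 probe sets correlated at 0.4751. These values describe 10 arrays that share pools, cultures and a scaling, and are not tests.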

How the data were processed

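The authors deposited 1 linear intensity value per probe set and array for 10 Affymetrix arrays. RNA was reverse-transcribed, amplified linearly and labelled with biotin, per the labels' protocols. How probes were summarised and whether values were scaled is not given in the sources used here, and nuclear RNA was not analysed here. Values were taken as log2(intensity + 1.5), which shrinks differences of dim probe sets, and quantile normalized over 12422 ordinary probe sets. Probe sets whose mean level did not exceed the 25th percentile were dropped. limma 3.58.1 in R 4.3.3 (lmFit, eBayes with a trend, two-sided, Benjamini-Hochberg adjustment at 0.05 over 9316 probe sets) fitted 8 gradient arrays (4 residual degrees of freedom) and 6 polyribosome and cytoplasmic arrays (3 residual degrees of freedom). The number of arrays limits the precision. The procedure was run on simulated data with independent noise and no shared replicate effect, so that run cannot speak to such an effect. Fits that share control arrays are not independent.

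The members and gene lists were chosen with earlier results of these data known. Other genes were named if they were called list members (up to 4 each way per list and comparison), or were among the 3 most correlated with a member. Each list gene has 1 probe set, the one with the highest mean level. Alternatives covered scaling, pseudocount, filter, trend, replicate block, a fit of all 10 arrays, and each array left out. Names came from GEO's platform annotation (10833 probe sets with 1 symbol, 396 with several, 1193 with none).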

Additional observations from a re-analysis of the deposited data

Results flagged for a closer look

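Cdk4 at 160538_at moved in opposite directions with serum in cytoplasmic and polyribosome RNA. The serum array exceeded the starved one by 0.41 (log2) in the cytoplasmic pair, and the serum polyribosome levels of 7.72 and 8.04 both lay below the starved 8.16 and 8.22. The serum effects in the pools differed by 0.72, and this difference was not tested, since cytoplasmic RNA has 1 array per serum state. Of all tested probe sets, 5.55% were higher in the cytoplasmic pair and lower in polyribosome RNA without overlap.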

How the results depend on the processing

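A pseudocount of 1 or 4 and a 50th percentile filter kept every count of calls within 1.5 times of its value. With the values as deposited, calls numbered 8595 (5052 with quantile normalization) for polyribosome against undertranslated RNA, 7153 (2463) against cytoplasmic RNA, 22 (100) for serum in undertranslated RNA and 6 (0) for serum averaged over the fractions. Median centring gave 27 for the last, and hybridization control scaling gave 34, with 12 for serum in undertranslated RNA and 8886 for polyribosome against undertranslated RNA. For serum over 6 arrays (83), no filter gave 24, no trend 19 and the fit of all 10 arrays 0. That fit gave 424 calls for polyribosome against cytoplasmic RNA.

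Signs turned with the values as deposited for Cdk4 101017_at (-0.027 for serum over 6 arrays and 0.84 against cytoplasmic RNA), Cdk4 160538_at (0.50 against cytoplasmic RNA), Ccnd3 (-0.23 for averaged serum) and Ccnd1 94231_at (2.27 against undertranslated RNA). With median centring Ccnd3 gave -0.067 for averaged serum. With hybridization control scaling, serum over 6 arrays gave -0.082 for Ccnd3 and -0.31 for Cdk4 101017_at, averaged serum gave -0.38 for Ccnd3 and -0.13 for Ccne1, polyribosome against undertranslated RNA gave 2.58 for Ccnd1 94231_at, and polyribosome against cytoplasmic RNA gave -0.046 for Ccne1. The turned differences between pools kept their sign relative to the median probe set. The scalings other than quantile normalization give the same relative value by construction. The cause of the turned signs, between pools or with serum, was not tested.

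Same-numbered arrays deviated together at r = 0.275 in the polyribosome groups and 0.0171 to 0.0535 elsewhere. The numbers also mark labelled cultures and were not taken as pairs in the main fits. For the polyribosome arrays, which enter the fits over 6 arrays, a shared replicate effect is thus left unmodelled there. With the replicate number as a block, calls moved to 149 for serum over 6 arrays and 52 for serum in undertranslated RNA. Against cytoplasmic RNA the block gave 1.01 for Ccnd2 (adjusted p = 0.064) and 0.54 for Ccnd1 94231_at (adjusted p = 0.138), ending both calls. It changed no other call of the 8 probe sets. The contrast of labelled with unlabelled cultures is the replicate number itself, so no block could be fitted there.

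With 1 array left out, calls ranged from 5 to 118 for serum over 6 arrays, 0 to 1243 for averaged serum, 0 to 2302 for serum in undertranslated RNA, 0 to 902 for the shift, 3758 to 6007 for polyribosome against undertranslated RNA and 351 to 2497 against cytoplasmic RNA. Among values whose sign turned, Ccnd1 94231_at ran from -1.08 to 0.22 (polyribosome against undertranslated RNA), -0.99 to 0.32 (averaged serum), -1.83 to 0.78 (serum in undertranslated RNA) and -0.93 to 1.68 (shift). Ccnd2 ran from -0.47 to 0.20 (serum over 6 arrays), -0.34 to 2.39 (shift) and -1.01 to 0.27 (labelling). Cdk4 101017_at ran from -1.24 to 0.22 (averaged serum), -0.043 to 0.18 (serum over 6 arrays), -2.44 to 0.48 (serum in undertranslated RNA), -0.52 to 2.40 (shift) and -1.01 to 0.015 (labelling), and Cdk4 160538_at from -0.31 to 0.094 (serum over 6 arrays) and -0.074 to 2.99 (shift). Myc ran from -0.094 to 0.56 (averaged serum), -1.10 to 0.21 (serum in undertranslated RNA) and -0.082 to 0.54 (labelling). Ccnd1 94232_at ran from -0.27 to 0.34 (labelling), Ccnd3 from -0.16 to 0.046 (serum in undertranslated RNA), and Ccne1 from -0.036 to 0.25 (polyribosome against cytoplasmic RNA) and -0.61 to 0.26 (labelling). Where 1 array of a group is left, it is assumed to vary like the other groups. Dim signal limits the undertranslated arrays, where 43.44% to 53.52% of probe sets were above background.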
